A study of Mus musculus with 6 samples.

Results

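The mitochondrial ribosomal proteins were examined in RNA-seq of primary mouse chondrocytes labelled Nf2-knockout or control. The genes were chosen by name, as those rows of the deposited gene table whose symbol is Mrpl or Mrps followed by a number and at most 1 letter, which leaves out the pseudogenes. There were 78 such genes among the 55401 in the table, 49 with a large-subunit symbol and 29 with a small-subunit symbol, spread over 17 chromosomes. All 78 had counts in all 6 libraries, the lowest being 166 counts, and all 78 passed the filter on low counts and were tested.

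The 6 libraries of poly(A) RNA fell into 2 groups of 3. The Nf2-knockout libraries came from cartilage chondrocytes that the labels call a knockout of Nf2, the gene of merlin, and their treatment label also names overexpression of TCF21, which their titles do not mention. The control libraries came from chondrocytes that carry the floxed Nf2 gene, per the design text, without the deletion. The cultures of both groups are described as including differentiation. The sources used here do not give the Cre or other means of deletion, its promoter, the age of the animals or whether animals were pooled, and do not explain the text D7 in every library name. The series title names signalling of the parathyroid hormone receptor through β-arrestin and the integrity of the skeleton. Since no label ties the replicates to different animals or cultures, the p-values reflect just the spread among these 6 libraries, part of which may be technical.

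Library totals ran from 50906043 to 63748798 counts for Nf2-knockout and from 55516143 to 61103617 counts for control. As a check of the labels, Nf2 stood at 87.9, 100.6 and 97.3 CPM (counts scaled to library size and normalised between libraries) in Nf2-knockout libraries versus 125.6, 132.6 and 122.2 CPM in controls, lower in each knockout library. The mean fell by 24.9% (log2 fold change −0.41, SE 0.0866, edgeR adjusted p = 0.0305), so most of the Nf2 counts remained in the libraries labelled Nf2-knockout. Which exons were deleted is not given, and the counts cover the whole gene. All 12 chondrocyte markers examined were detected, of which Col2a1 rose (1.33, edgeR adjusted p = 0.0446) and 0 fell, summing to 1010 to 1910 CPM in Nf2-knockout libraries versus 844 to 1260 CPM in controls. That sum is mostly Col2a1 (324 to 718 versus 174 to 269 CPM) and Comp (283 to 550 versus 292 to 435 CPM). Several others were detected at low levels, such as Acan (3.5 to 12.6 versus 11.0 to 15.5 CPM) and Matn1 (1.0 to 3.3 versus 1.3 to 3.0 CPM). Of the 12, 6 had log2 fold changes below 0, among them Cnmd (−1.39), Acan (−0.63) and Sox9 (−0.36). The other 6 stood above 0, among them Matn3 (0.68), Col9a1 (0.60) and Col11a1 (0.45). Besides Col2a1 none passed, though the groups did not overlap for Cnmd (lower) and Matn3 (higher). Col2a1 was also called by DESeq2, but not by limma on FPKM or by edgeR with the replicate number as a block. Macrophage markers (11 genes, of which 4 fell) summed to 46.8 to 107 CPM in Nf2-knockout libraries versus 145 to 389 CPM in controls, and pericyte markers (8 genes, of which 3 rose and 1 fell) to 570 to 875 CPM in Nf2-knockout libraries versus 385 to 425 CPM in controls. The pericyte markers were split, with 5 above 0 and 3 below, and log2 fold changes from −2.67 to 1.96. Sums of osteoblast (8300 to 10500 CPM in Nf2-knockout libraries versus 8190 to 11100 CPM in controls), skeletal muscle (6.62 to 18.1 versus 9.4 to 24.1 CPM, with 1 of 6 genes at 0 in all libraries) and adipocyte markers (996 to 1340 versus 877 to 1290 CPM) overlapped between the groups. The osteoblast sum is nearly all Spp1 (8289 to 10490 versus 8176 to 11100 CPM), while Alpl (−1.19) and Dmp1 (3.07) stood apart between the groups in opposite directions and were called by DESeq2 but not by edgeR (adjusted p = 0.102 and 0.101). The part of these cell types in the results below was not tested. In such bulk samples, fewer cells of a type and less RNA per cell cannot be told apart.

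Mitochondria keep a ribosome of their own, which descends from that of bacteria and makes the few membrane proteins of the respiratory chain that are encoded in mitochondrial DNA. Its rRNAs are made inside the organelle, whereas all of its proteins are encoded in the nucleus, translated in the cytosol and imported. Some of these proteins have a counterpart in the bacterial ribosome and others belong to mitochondria only. The large subunit joins amino acids and lets the new chain out through its tunnel, and the small subunit holds the mRNA and reads its codons. The genes are known to be expressed in most tissues.

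Promoters of such genes are known for binding sites of the factors NRF1, GABP (of the ETS family) and YY1. Of the 78 genes, 69 had a promoter window in the RefSeq table of the GRCm38.p6 build, reaching from 250 bases before the start of the transcript to 50 bases after it. The windows of 4 genes are shown, up to 30 bases past the start. Of these genes 3 (Mrpl34, Mrpl36 and Mrps36) passed the test described next, and Mrpl12 was the closest of those that did not. The window of Mrpl42, which passed as well, is not shown. Capitals mark a match to the motifs searched on both strands, which were CCGGAAG for ETS factors (in Mrpl34), AAGATGGCG for YY1 (in Mrpl36, read on the opposite strand) and GCGCA, any base and GCGC for NRF1 (in Mrpl12, also on the opposite strand). The 3 motifs share no stretch in these windows, and the RefSeq start of Mrpl36 lies inside the gene model of the deposited table.
Mrpl34, chr8:71464676-71464955, plus strand: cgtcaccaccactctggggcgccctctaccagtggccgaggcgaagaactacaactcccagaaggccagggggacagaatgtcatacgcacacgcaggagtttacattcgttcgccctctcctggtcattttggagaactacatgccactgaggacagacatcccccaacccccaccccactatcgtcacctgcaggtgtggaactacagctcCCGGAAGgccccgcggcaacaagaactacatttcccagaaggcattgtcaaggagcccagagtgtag
Mrpl36, chr13:73330759-73331038, plus strand: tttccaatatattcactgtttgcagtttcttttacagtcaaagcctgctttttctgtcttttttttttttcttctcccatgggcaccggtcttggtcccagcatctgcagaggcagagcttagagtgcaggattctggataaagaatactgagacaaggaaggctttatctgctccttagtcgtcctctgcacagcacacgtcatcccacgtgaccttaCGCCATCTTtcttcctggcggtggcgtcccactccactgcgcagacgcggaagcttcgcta
Mrps36, chr13:100744630-100744909, minus strand: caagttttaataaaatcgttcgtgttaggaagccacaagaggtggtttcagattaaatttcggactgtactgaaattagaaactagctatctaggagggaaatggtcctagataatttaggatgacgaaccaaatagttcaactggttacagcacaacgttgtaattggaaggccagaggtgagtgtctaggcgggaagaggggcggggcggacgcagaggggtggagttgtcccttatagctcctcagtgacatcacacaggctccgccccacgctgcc
Mrpl12, chr11:120484387-120484666, plus strand: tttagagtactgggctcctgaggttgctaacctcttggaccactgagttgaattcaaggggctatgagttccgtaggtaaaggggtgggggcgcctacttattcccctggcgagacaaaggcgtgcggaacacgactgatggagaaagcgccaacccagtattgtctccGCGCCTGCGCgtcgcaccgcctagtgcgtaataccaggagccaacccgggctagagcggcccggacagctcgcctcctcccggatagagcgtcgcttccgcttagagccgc

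The 69 members had 75 windows, and a gene was counted when any of its windows held the letters. The ETS letters were found in 26 of the 69 members (37.7%), against 18.1% of the 11973 tested genes with a window and 9.9% of all 27025 genes in the table. The NRF1 letters were found in 13 (18.8%, against 10.3% and 5.2%), and the YY1 letters in 8 (11.6%, against 3.1% and 1.6%). At least 1 of the motifs was found for 41 of the 69 members (59.4%, against 3358 of the 11973 tested genes). Mrps36 held none of them, and in the window of Mrpl42 the YY1 letters began 28 bases into the transcript. These shares describe letters in a window and were not tested. The genes also often share their start region with a neighbour: a protein-coding gene on the other strand started within 1000 bases of 33 of the 78 (42.3%), against 10.8% of all 22028 protein-coding genes in GENCODE M21. That background holds genes that were not tested here, and the share among tested genes alone was not counted.

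Few genes with symbols of the mitochondrial ribosome passed the test between Nf2-knockout and control chondrocytes, and those that did were lower in the knockout libraries. By edgeR's quasi-likelihood test with Benjamini-Hochberg adjustment over all 18218 tested genes, 4 of 78 fell (5.13%) and 0 rose, against 9.29% of all tested genes called in either direction, 5.18% called lower and 4.11% called higher. The share that fell was thus near that of all genes. The 4 were Mrps36, Mrpl34, Mrpl36 and Mrpl42. Mrps36 is now known as a protein of another complex, and without it 3 of 77 fell (3.9%), with a median log2 fold change of −0.10. The log2 fold changes of Nf2-knockout over control ran from −0.67 to 0.35, with a median of −0.11 (quartiles −0.22 and 0.01), where the median of all tested genes was −0.01 and their quartiles −0.31 and 0.29. Below 0 stood 58 of the 78 (74.4%), against 51.1% of all tested genes. At an unadjusted p under 0.05 edgeR had 13 members, all lower in Nf2-knockout libraries (16.7%, against 24.8% of all tested genes in either direction and 13.2% lower).

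**Figure D1:**
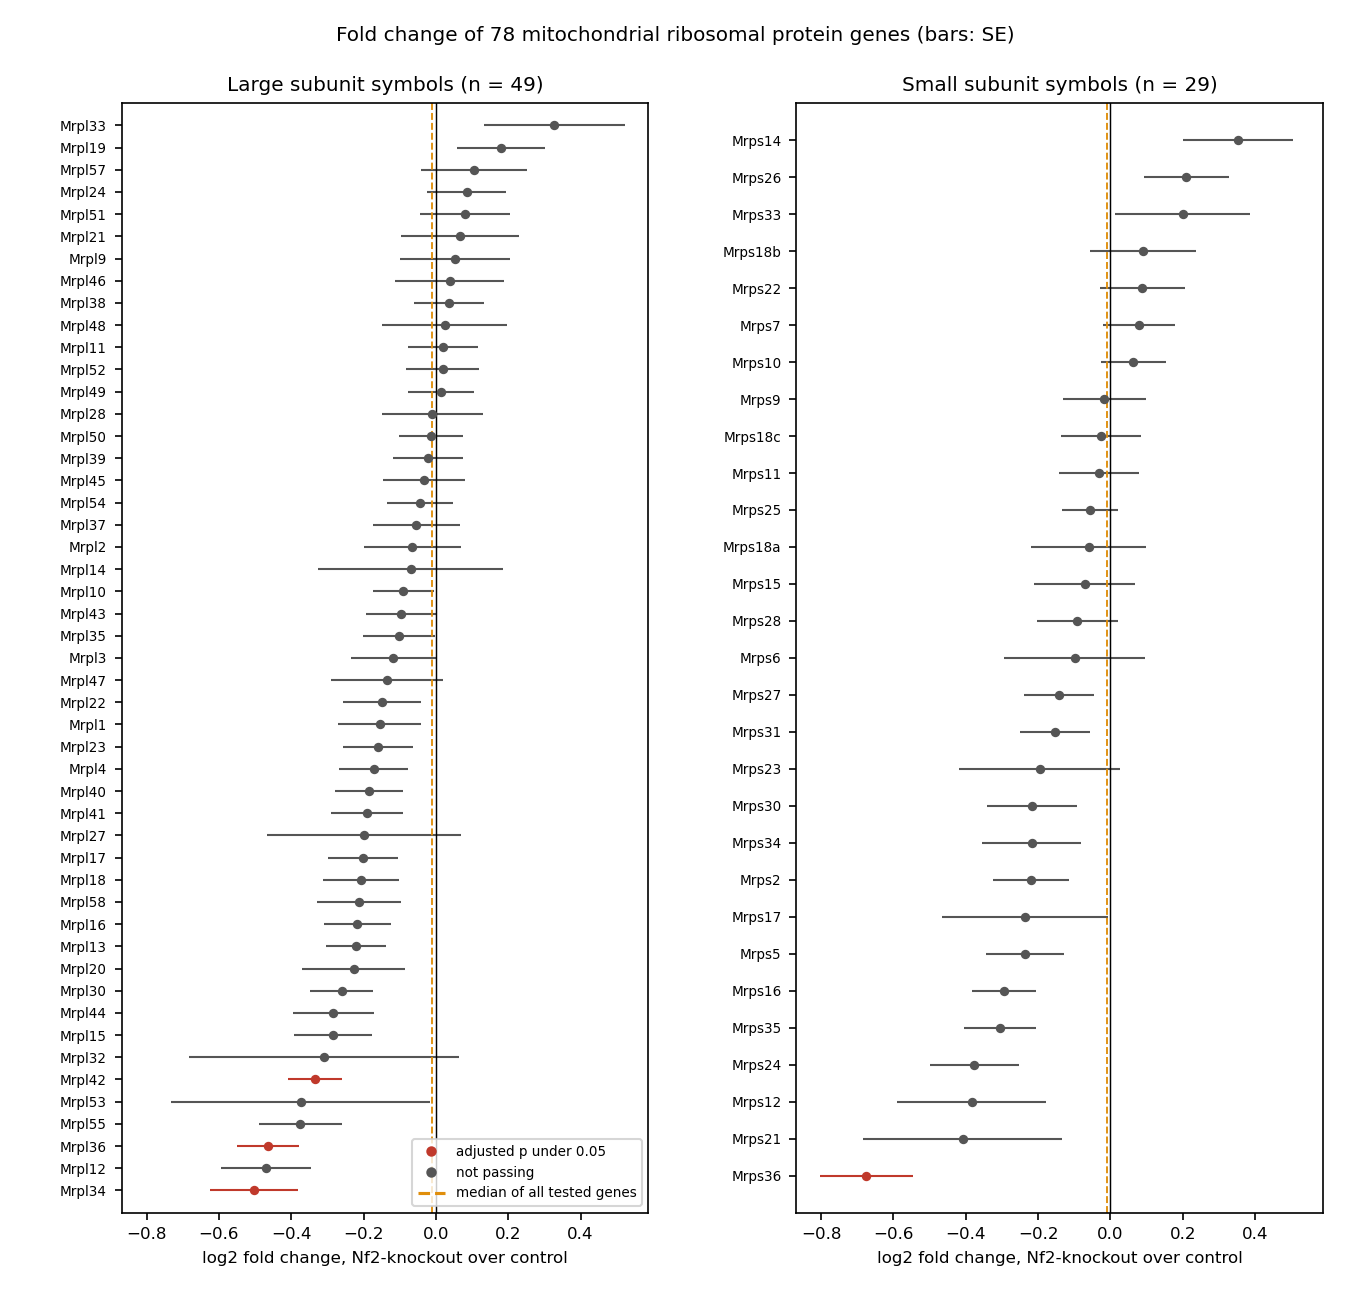
Log2 fold change of Nf2-knockout over control for each of the 78 genes, 49 with large-subunit symbols on the left and 29 with small-subunit symbols on the right, with bars of 1 SE from edgeR. Red points are the 4 genes past an adjusted p of 0.05, and the dashed line is the median of all tested genes at −0.01.

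The calls rested on all 6 libraries. Leaving out 1 library left 1 member called without Nf2-knockout replicate 1 (Mrps21, not among the 4), and 0 without Nf2-knockout replicate 2 (9 at an unadjusted p under 0.05), Nf2-knockout replicate 3 (8) or control replicate 2 (11). Leaving out control replicate 1 left 2 (Mrpl34 and Mrps36), as did leaving out control replicate 3 (Mrpl36 and Mrps36). With the replicate number as a block edgeR called 0 and had 12 whose unadjusted p was below 0.05. Over all genes edgeR also called fewer in these fits. It called 629 to 1186 of all genes without 1 library and 923 with the block, against 1693 in the main fit. DESeq2 called 5 members, the same 4 and Mrpl12, and 2618 of all genes.

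Mrps36 had the lowest log2 fold change of the 78. Despite its name, its product is known as a part of the 2-oxoglutarate dehydrogenase complex of the citric acid cycle. Mrps36 (ENSMUSG00000061474, chromosome 13, 100735955 to 100744659, minus strand, GRCm38) had 37.8, 39.6 and 37.9 CPM in Nf2-knockout libraries versus 72.4, 58.4 and 53.2 CPM in controls. The groups did not overlap, and the knockout libraries lay closer together than the controls, of which replicate 1 was highest. The means were 38.4 ± 1.03 CPM in Nf2-knockout libraries versus 61.3 ± 9.92 CPM in controls (SD, n = 3 each), a log2 fold change of −0.67 (SE 0.128, edgeR adjusted p = 0.022). The call held without control replicate 1 (adjusted p = 0.0396) and without control replicate 3 (0.0282), and was lost without Nf2-knockout replicates 1, 2 or 3 (0.094, 0.0597 and 0.0849) or control replicate 2 (0.063), with log2 fold changes from −0.77 to −0.54 over the 6 fits. Its pseudogene Mrps36-ps2 had 62, 62 and 67 counts in Nf2-knockout libraries versus 58, 85 and 54 in controls, Mrps36-ps1 between 16 and 38 counts and Mrps36-ps3 none, where Mrps36 itself had 1973 to 2532 counts in Nf2-knockout libraries versus 3039 to 4294 in controls.

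Mrpl36 and Mrpl34 encode small proteins of the large subunit that have bacterial counterparts. Mrpl36 (ENSMUSG00000021607, chromosome 13, 73328513 to 73332178, plus strand) had 34.1, 36.5 and 34.6 CPM in Nf2-knockout libraries versus 48.0, 47.6 and 49.5 CPM in controls. Values within each group were close, and the groups did not overlap. The means were 35.1 ± 1.26 CPM in Nf2-knockout libraries versus 48.4 ± 1.01 CPM in controls (SD, n = 3 each), for a log2 fold change of −0.46 (SE 0.0854, edgeR adjusted p = 0.0205), which was held without control replicate 3 (0.0465) and lost without each other library (0.0521 to 0.0937). Its neighbour Ndufs6, a subunit of respiratory complex I on the other strand whose start lies 29 bases away in GENCODE M21, fell too, at 65.1, 60.2 and 56.3 CPM in Nf2-knockout libraries versus 77.5, 94.1 and 80.5 CPM in controls (log2 fold change −0.47, SE 0.108, edgeR adjusted p = 0.0387, lost without any 1 library at 0.0572 to 0.128). That distance is measured from the start of Mrpl36 in GENCODE M21, not from the RefSeq start whose window is shown above. Whether counting used the strand is not given, so reads of the 2 genes near their starts may not be told apart.

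Mrpl34 (ENSMUSG00000034880, chromosome 8, 71464959 to 71465747, plus strand) had 45.2, 42.4 and 43.6 CPM in Nf2-knockout libraries versus 51.7, 66.7 and 67.3 CPM in controls. All knockout values were below the lowest control, replicate 1. Its means were 43.7 ± 1.39 CPM in Nf2-knockout libraries versus 61.9 ± 8.82 CPM in controls (SD, n = 3 each). The log2 fold change was −0.50 (SE 0.122, edgeR adjusted p = 0.0474), a call held without control replicate 1 (0.025) and lost without each other library (0.106 to 0.15). Mrpl42, a large-subunit protein without a bacterial counterpart, had the closest values within groups of the 4. Mrpl42 (ENSMUSG00000062981, chromosome 10, 95480805 to 95501927, minus strand) had 66.3, 64.7 and 64.6 CPM in Nf2-knockout libraries versus 83.0, 80.6 and 83.1 CPM in controls. The mean was 65.2 ± 0.929 CPM in Nf2-knockout libraries versus 82.2 ± 1.44 CPM in controls (log2 fold change −0.33, SE 0.0743, edgeR adjusted p = 0.0363), and the call was lost without any 1 of the 6 libraries (0.0651 to 0.134).

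**Figure D2:**
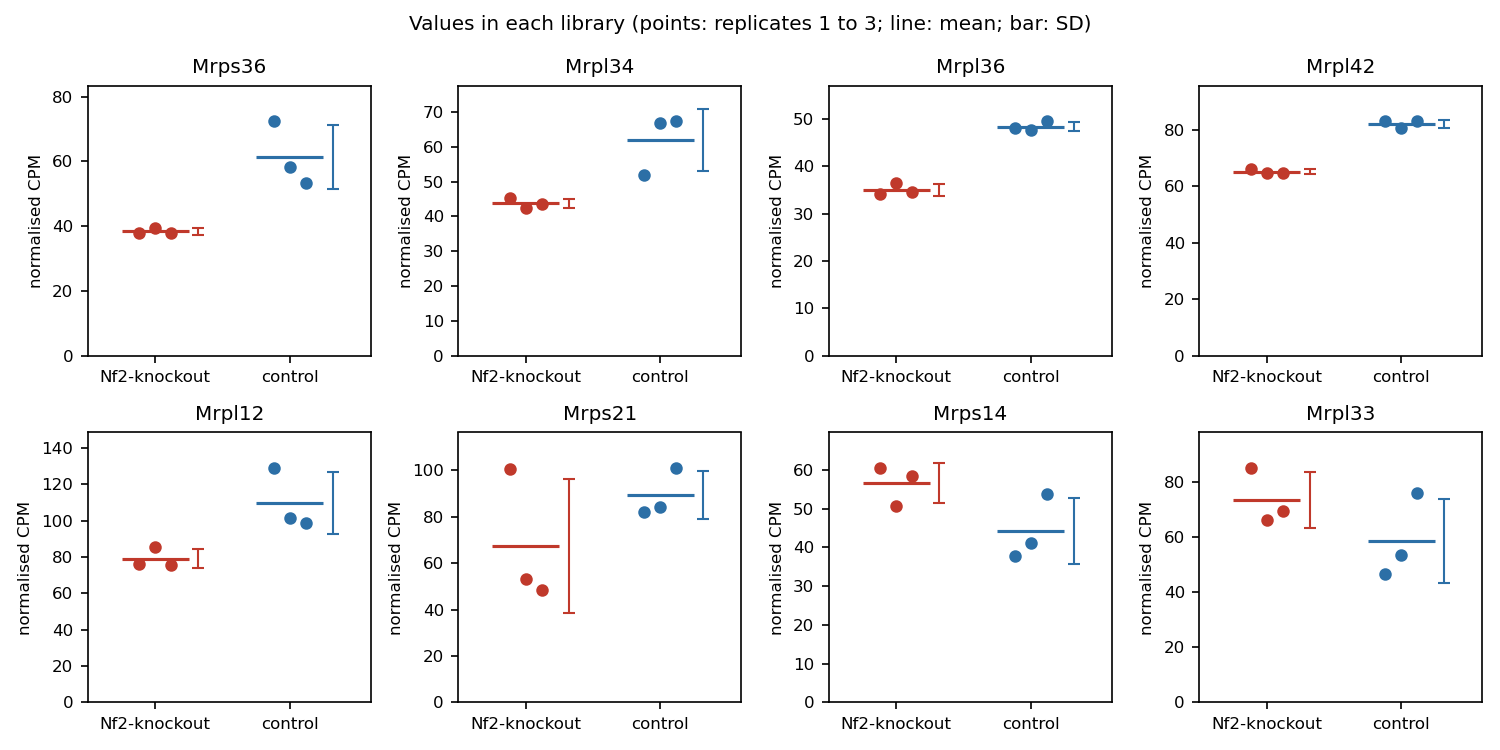
Normalised CPM in each Nf2-knockout (red) and control (blue) library for the 4 genes that fell (Mrps36, Mrpl34, Mrpl36 and Mrpl42) and for Mrpl12, Mrps21, Mrps14 and Mrpl33, which did not pass; lines are means and bars SD, n = 3 each. In the first 5 panels no knockout point reaches a control point, whereas in the Mrps21 panel knockout replicate 1 lies among the controls.

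Mrpl12 was the next in order of p. It encodes the protein of the flexible stalk to which translation factors dock, and has also been described as a partner of the mitochondrial RNA polymerase. Mrpl12 stood at 76.4, 85.3 and 75.8 CPM in Nf2-knockout libraries versus 129.1, 101.2 and 98.6 CPM in controls, without overlap (log2 fold change −0.47, SE 0.125), and did not pass in edgeR (adjusted p = 0.0628). Of the 5 stalk proteins (Mrpl10, Mrpl11, Mrpl12, Mrpl53 and Mrpl54) 4 had log2 fold changes below 0, from −0.47 to 0.02, and edgeR called 0 (1 below 0.05 unadjusted). Of 8 proteins around the exit of the tunnel, 7 were below 0, from −0.28 to 0.08, and edgeR again called 0 (1 below 0.05 unadjusted). Among these, Mrpl45, which holds the ribosome to the inner membrane, stood at 42.3, 46.6 and 47.0 CPM in Nf2-knockout libraries versus 44.2, 42.3 and 52.4 CPM in controls (log2 fold change −0.03, SE 0.113).

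Other members with roles of their own did not pass either. Mrpl58, a peptidyl-tRNA hydrolase that frees stalled ribosomes, stood at 15.3 ± 0.644 CPM in Nf2-knockout libraries versus 17.7 ± 1.54 CPM in controls (log2 fold change −0.21, SE 0.117, edgeR adjusted p = 0.318). Mrps12, at the site where codons are read, had 32.2, 19.7 and 21.5 CPM in Nf2-knockout libraries versus 32.7, 35.8 and 27.2 CPM in controls (−0.38, SE 0.206), with knockout replicate 1 among the controls. Mrps34, a mitochondria-specific protein of the small subunit, had 24.4, 25.2 and 25.4 CPM in Nf2-knockout libraries versus 24.1, 33.5 and 29.6 CPM in controls (−0.22, SE 0.136). Mrps30, which sits in the large subunit despite its symbol, ranged from 24.5 to 29.4 CPM in Nf2-knockout libraries versus 27.7 to 34.5 CPM in controls (−0.22, SE 0.124).

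The paralogues Mrps18a, Mrps18b and Mrps18c descend from one bacterial protein, and in the assembled ribosome the product of Mrps18a is found in the large subunit and the others in the small subunit. Their levels per length were 10.4 ± 1.34, 13.5 ± 1.82 and 24.3 ± 0.680 FPKM in Nf2-knockout libraries, and 10.1 ± 1.71, 11.8 ± 1.57 and 23.1 ± 2.32 FPKM in control libraries (FPKM as deposited by the authors, fragment counts scaled for length and depth). Mrps18c was the most abundant of the 3 in each library. Their log2 fold changes from the counts were −0.06 (SE 0.16), 0.09 (SE 0.147) and −0.03 (SE 0.11), each smaller than its SE, and those of Mrps18a and Mrps18c were above 0 on the deposited FPKM (0.05 and 0.08).

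No member rose. The highest log2 fold changes were those of Mrps14 (0.35, SE 0.152, edgeR adjusted p = 0.204), a small-subunit protein with a bacterial counterpart, and Mrpl33 (0.33, SE 0.194, adjusted p = 0.353), its like in the large subunit. Mrps14 had 60.5, 50.8 and 58.4 CPM in Nf2-knockout libraries versus 37.8, 41.2 and 53.9 CPM in controls, and Mrpl33 had 85.4, 66.4 and 69.5 CPM in Nf2-knockout libraries versus 46.8, 53.5 and 76.0 CPM in controls. In both genes control replicate 3 lay among the knockout values. It lay above all of them for Mrps33 (47.6, 41.5 and 40.9 CPM in Nf2-knockout libraries versus 30.5, 33.6 and 49.0 CPM in controls, log2 fold change 0.20, SE 0.186) and Mrpl57 (0.11, SE 0.146). Mrps26 (0.21, SE 0.117) and Mrpl19 (0.18, SE 0.121) completed the 6 highest, also with overlapping groups.

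No member had all of its knockout values above all control values, and 24 of the 78 (30.8%) had all of them below. Of all tested genes, 17.4% lay apart in the lower and 15.5% in the higher direction (32.9% together). Beside the 4 genes that fell, the 24 included Mrpl12, Mrps24 (−0.38), Mrpl55 (−0.37), Mrps35 (−0.31), Mrps16 (−0.29), Mrpl15 (−0.28), Mrpl44 (−0.28) and Mrpl30 (−0.26), whose edgeR adjusted p ran from 0.0628 to 0.172. By subunit, 36 of 49 large-subunit and 22 of 29 small-subunit symbols stood below 0. The large-subunit median was −0.12 with 3 that fell, and the small-subunit median −0.10 with 1 that fell, Mrps36. Without Mrps36 edgeR and DESeq2 called 0 of 28 small-subunit symbols (3 at an unadjusted p under 0.05 by edgeR). On the deposited FPKM 26 of 49 and 14 of 29 stood below 0, with medians of −0.02 for large-subunit and 0.01 for small-subunit symbols. Of 46 members listed as having a bacterial counterpart 37 stood below 0 (median −0.15, 2 fell), and of the 32 not in that list 21 (median −0.06, 2 fell). Of the Mrps18 paralogues that list holds Mrps18c alone. These differences between sets of members were not tested.

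The order of abundance of the members was much alike in all libraries. Spearman's rho of FPKM across the 78 genes was at least 0.961 between any 2 of the 6 libraries, a description in which the points share libraries and transcript lengths. Mean FPKM over 6 libraries ran from 2.55 for Mrps35 to 94.7 for Mrps21, a range of 37.1-fold around a median of 13.6, and 49 members stood at 10 FPKM or more. After Mrps21 came Mrpl34 (67.1 ± 2.12 FPKM in Nf2-knockout libraries versus 88.6 ± 12.3 FPKM in controls, SD, n = 3 each), Mrpl54 (64.2 ± 4.46 versus 61.7 ± 0.844), Mrpl12 (48.1 ± 3.03 versus 62.2 ± 9.9) and Mrps6 (54.5 ± 9.17 versus 54.3 ± 12.3). In control libraries the spreads of Mrpl54, Mrpl12 and Mrps6 overlapped, whereas in Nf2-knockout libraries Mrpl54 (59.2 to 67.7 FPKM) stood above Mrpl12 (46.2 to 51.6 FPKM). The lowest after Mrps35 (2.37 ± 0.123 FPKM in Nf2-knockout libraries versus 2.73 ± 0.0995 FPKM in controls) were Mrps10 (3.46 ± 0.0889 versus 3.08 ± 0.134), Mrpl1 (3.34 ± 0.26 versus 3.47 ± 0.157), Mrps5 (3.58 ± 0.235 versus 3.93 ± 0.31) and Mrps30 (3.77 ± 0.369 versus 4.09 ± 0.473), whose means over 6 libraries ran from 3.27 to 3.93 FPKM.

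**Figure D3:**
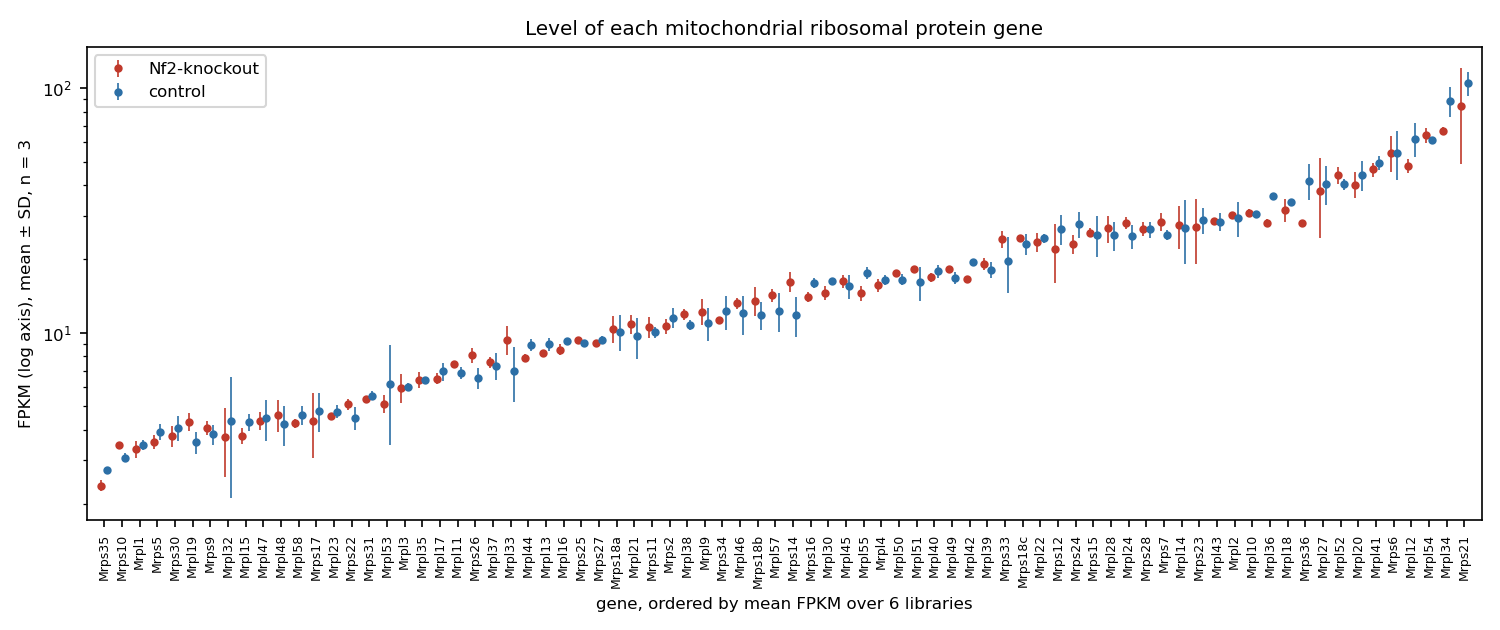
Mean FPKM ± SD (n = 3, log axis) of each of the 78 genes in Nf2-knockout (red) and control (blue) libraries, ordered by the mean over 6 libraries from Mrps35 (2.55) to Mrps21 (94.7). The 2 groups follow each other along the whole range.

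A few members varied between libraries of one group more than between groups. Mrps21, a small-subunit protein with a bacterial counterpart, had 100.4, 53.0 and 48.3 CPM in Nf2-knockout libraries versus 82.2, 84.3 and 101.1 CPM in controls, so that knockout replicate 1 stood near the highest control and the other 2 below all controls. Its log2 fold change was −0.41 (SE 0.274, edgeR adjusted p = 0.418), and −0.80 (adjusted p = 0.0404) without Nf2-knockout replicate 1. In Mrps17 knockout replicate 1 was likewise the highest of its group, at 41.0, 25.5 and 24.8 CPM in Nf2-knockout libraries versus 41.2, 37.5 and 28.8 CPM in controls. In Mrps23 it was the lowest, at 30.2, 52.3 and 53.7 CPM in Nf2-knockout libraries versus 48.6, 59.3 and 48.1 CPM in controls. Mrpl32 ranged from 16.1 to 27.5 CPM in Nf2-knockout libraries versus from 15.2 to 39.1 CPM in controls. The highest and lowest library differed at least 1.5-fold for 6 members in Nf2-knockout and 6 in control libraries, and the median coefficient of variation of members was 6.5% in Nf2-knockout and 8.9% in control libraries. Control replicate 3 was the highest control library for 44 of the 78 genes, and Nf2-knockout replicate 1 the highest knockout library for 37.

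The summed level of the 78 genes was a little lower in Nf2-knockout libraries, by an amount that depended on the scaling. It was 3172, 3008 and 2963 CPM in Nf2-knockout libraries versus 3283, 3210 and 3466 CPM in controls, a log2 ratio of means of −0.12, and the groups did not overlap. As a share of all counts, before normalisation between libraries, the sums were 0.326%, 0.309% and 0.311% in Nf2-knockout libraries versus 0.319%, 0.312% and 0.332% in controls (log2 ratio −0.03), and in the deposited FPKM 1535, 1426 and 1398 in Nf2-knockout libraries versus 1502, 1480 and 1594 in controls, with overlap in both. The log2 ratio of the FPKM sums was −0.07.

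**Figure D4:**
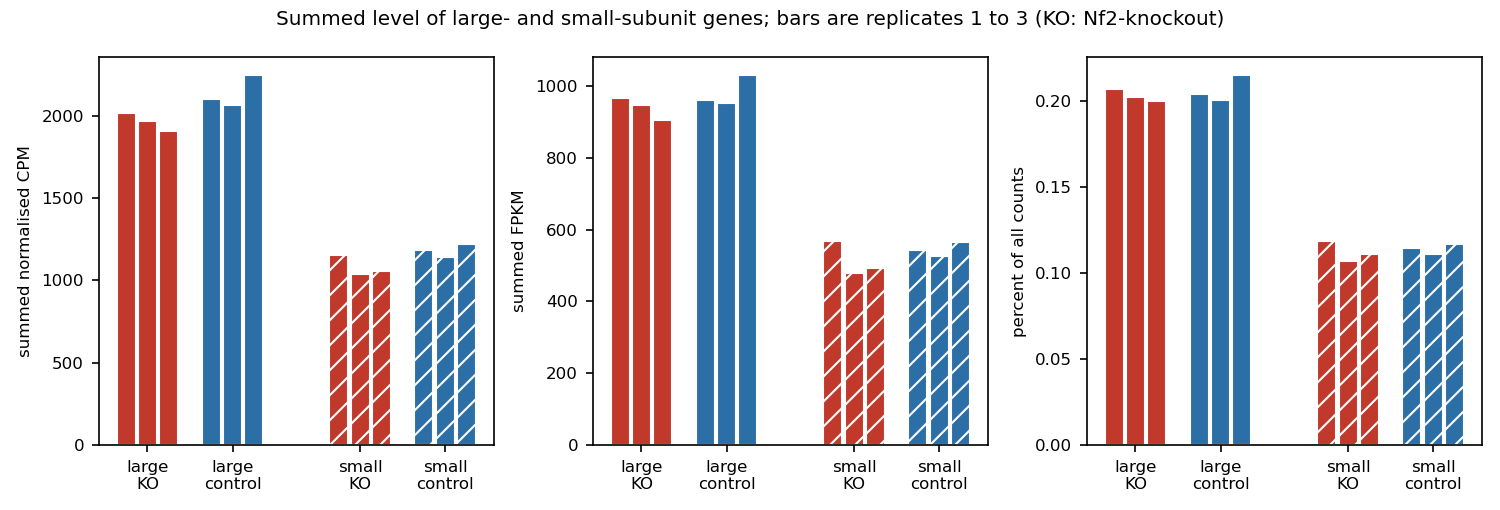
Summed level of the large-subunit (plain bars) and small-subunit (hatched bars) genes in each Nf2-knockout (red) and control (blue) library, as normalised CPM, FPKM and percent of all counts. The large-subunit CPM bars of the 3 knockout libraries (1906 to 2017) end below those of the 3 controls (2067 to 2244), which is not so for FPKM or for percent of counts.

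On the deposited FPKM (limma on log2(FPKM + 0.1)) the median of all genes tested moved up by 0.10, to 0.09, and that of the members to −0.01, with 40 of 78 below 0. Relative to all genes the members' median was −0.10 in the counts and −0.10 in the FPKM, and 57 members stood below the median of all genes in both. Limma called 2 members, Mrpl36 and Mrps36. Of all genes it called 1040 higher and 612 lower in Nf2-knockout libraries, where edgeR on the counts called 749 higher and 944 lower. The size of the shift relative to all genes ran from −0.12 to −0.08 over the 14 other settings tried.

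Short transcripts made up much of the list, with a median of 1052 bases, against 1945 for all protein-coding genes in GENCODE M21. The 36 members under 1000 bases had a median log2 fold change of −0.18, where the 2535 tested genes of that length had −0.0031. The 24 members of at least 1000 and under 2000 bases had −0.03 (all genes 0.00), and the 15 of at least 2000 and under 4000 bases had −0.16 (all genes −0.01), while the 3 of 4000 bases and over had 0.18 (all genes −0.05). Across the 78 genes Pearson's r of log2 length and log2 fold change was 0.218, and 0.008 across 14263 tested protein-coding genes, a description in which all points share the 6 libraries.

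Of the 33 genes that start beside a member, 32 were tested, and Ndufs6 alone passed. In 16 of the pairs both genes were below 0, in 7 both above and in 9 on opposite sides. The pair Mrpl46 and Mrps11 is counted from both sides: 2 members start 412 bases apart (0.04 and −0.03). Mrps12 and the mitochondrial seryl-tRNA synthetase gene Sars2 stood at −0.38 and −0.24, and Mrpl43 and Twnk, the gene of the mitochondrial DNA helicase, at −0.10 and −0.14. In all, 41 members overlap another annotated gene, 36 of them one on the other strand, so their counts may hold reads of a neighbour.

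The other genes of the mitochondrial translation system were described in lists written with earlier results of these data known. Of all tested genes, 5.18% were called lower and 4.11% higher by edgeR, and 24.8% had an unadjusted p under 0.05. Of 5 further proteins of the ribosome under other symbols (Dap3, Ptcd3, Chchd1, Aurkaip1 and Gadd45gip1) edgeR, DESeq2 and limma called 0, with 1 at an unadjusted p under 0.05 by edgeR, and log2 fold changes were from −0.27 to 0.05. Dap3, a GTP-binding protein of the small subunit, had 54.2, 57.6 and 50.7 CPM in Nf2-knockout libraries versus 53.7, 50.2 and 56.4 CPM in controls. Of 26 assembly and rRNA modification factors none was called by any of the 3 tools, with 3 at an unadjusted p under 0.05 by edgeR. Their median was −0.11, and 0.01 on the deposited FPKM. The lowest p among them were those of Rbfa, which matures the small subunit (−0.38, SE 0.112), and the ribosome assembly factors Mterf4 (−0.55, SE 0.202) and Mterf3 (−0.42, SE 0.168).

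Of 15 translation factors 2 fell and 1 rose, where 5.18% of all tested genes fell and 4.11% rose. Oxa1l, the insertase that receives new chains from the ribosome at the inner membrane, fell to 45.7, 45.6 and 44.5 CPM in Nf2-knockout libraries, against 70.4, 65.0 and 71.2 CPM in control libraries. Its log2 fold change was −0.61 (SE 0.083, edgeR adjusted p = 0.00856), and the call was held in each of the 6 fits without 1 library. Gfm1, the elongation factor that moves the ribosome along the mRNA, fell to 55.9 to 59.9 CPM in Nf2-knockout libraries, against 75.6 to 82.0 CPM in control libraries (−0.42, SE 0.0825, adjusted p = 0.0251, held without control replicate 3 at 0.0485, otherwise 0.0538 to 0.109, and lost in limma on FPKM and with the replicate block). Slirp, which stabilises mitochondrial mRNAs together with Lrpprc, rose to 40.7, 52.0 and 39.9 CPM in Nf2-knockout libraries, against 25.6, 33.3 and 25.2 CPM in control libraries (0.66, SE 0.16, edgeR adjusted p = 0.0477, 0.05 without control replicate 2 and lost without each other library, at 0.0861 to 0.128).

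Of 20 mitochondrial aminoacyl-tRNA synthetases and related enzymes 13 stood above 0 with a median of 0.12 (0.20 on the deposited FPKM, with 3 below 0), and edgeR and DESeq2 called 0 (1 at an unadjusted p under 0.05), whereas limma on FPKM called the tyrosyl-tRNA synthetase gene Yars2 (edgeR log2 fold change 0.41, SE 0.14, adjusted p = 0.123). Of 10 genes of mitochondrial transcription and DNA replication edgeR, DESeq2 and limma called 0 (0 at an unadjusted p under 0.05 by edgeR), with a median of 0.01 in the counts and 0.10 on the FPKM, where 9 were tested. Among 9 tested transcription factors known at promoters of mitochondrial genes, Ppargc1a, the coactivator PGC-1α, fell to 41.6, 51.8 and 43.1 CPM in Nf2-knockout libraries, against 146.8, 152.7 and 113.8 CPM in control libraries (log2 fold change −1.60, SE 0.145, edgeR adjusted p = 0.00332, held in each of the 6 fits without 1 library), and the other 8 did not pass. Of the 9, 3 had an unadjusted p under 0.05 by edgeR, against 24.8% of all tested genes in either direction and 13.2% lower. Apart in the lower direction lay 4 of the 9, against 17.4% of all tested genes. Gabpa, the DNA-binding subunit of GABP, had 58.1, 60.0 and 64.5 CPM in Nf2-knockout libraries versus 85.5, 77.4 and 68.3 CPM in controls (−0.34, SE 0.107, edgeR adjusted p = 0.0996), without overlap. Esrra, a nuclear receptor that works with PGC-1α, had 72.4, 75.4 and 56.2 CPM in Nf2-knockout libraries versus 77.7, 104.4 and 99.5 CPM in controls (−0.46, SE 0.156, edgeR adjusted p = 0.118), also without overlap. These 3 had the smallest p of the list. The genes of the other promoter factors stood near 0, with Nrf1 at 0.16 (SE 0.148, edgeR adjusted p = 0.567) and Yy1 at −0.05 (SE 0.0731, adjusted p = 0.709). Gabpb1, in the same list, stood at 0.13 (SE 0.314, adjusted p = 0.849). Of the 9, 7 were below 0 and 2 above.

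The mRNAs that this ribosome translates all had lower means in Nf2-knockout libraries. All 13 mitochondrially encoded mRNAs had log2 fold changes below 0, from −0.52 to −0.21 with a median of −0.40, also on the deposited FPKM (median −0.29). The groups overlapped for mt-Nd6, mt-Atp8 and mt-Cytb, and control replicate 1 was the highest control for each of the 13 but mt-Nd3. The 13 share the same 6 libraries and are not independent of each other. By edgeR 10 had an unadjusted p under 0.05, where 13.2% of all tested genes were lower at that level, and 1 was called. This was mt-Nd2, a complex I subunit, with 4840, 4461 and 4485 CPM in Nf2-knockout libraries versus 7433, 6102 and 6055 CPM in controls (−0.51, SE 0.115, edgeR adjusted p = 0.0387), a call lost without any 1 library (0.0536 to 0.119) and in limma, whereas DESeq2 called 4 (mt-Atp6, mt-Nd1, mt-Nd2 and mt-Nd3). The 36 nuclear genes with names of complex I subunits had a median of −0.33, with 35 below 0, 8 that fell and 0 that rose. The 76 genes of cytosolic ribosomal proteins had a median of 0.24, with 65 above 0, 2 that rose and 0 that fell. Of all tested genes 5.18% fell and 4.11% rose. The median of the mitochondrial ribosomal proteins (−0.11) lay between those of these 2 lists, under each of the 4 scalings compared. The lists were set side by side without a test of their difference.

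**Figure D5:**
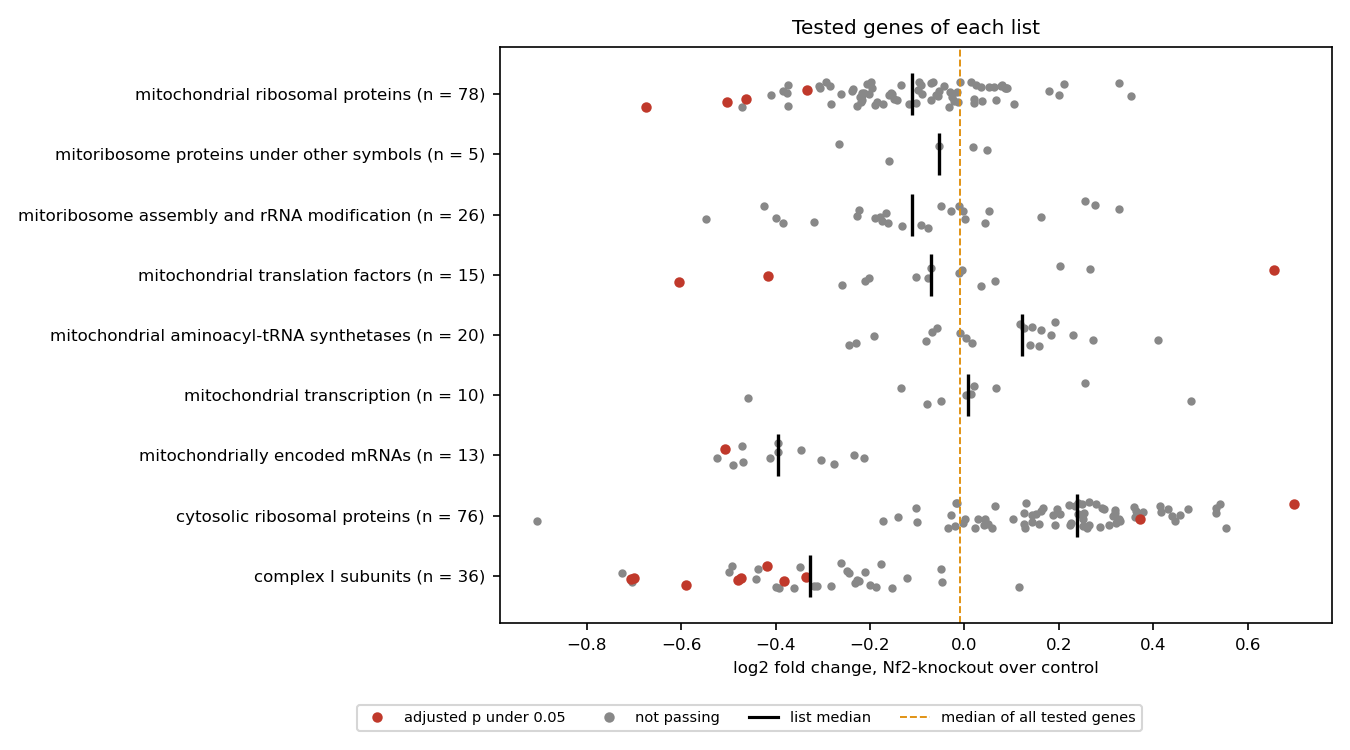
Log2 fold change of Nf2-knockout over control for each tested gene of the mitochondrial ribosome and of related lists, with the median of each list as a black bar and the genes past an adjusted p of 0.05 in red. The mitochondrial ribosomal proteins centre at −0.11, the mitochondrially encoded mRNAs at −0.40, complex I subunits at −0.33 and cytosolic ribosomal proteins at 0.24, and the dashed line is the median of all tested genes at −0.01.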

How the data were processed

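Read counts and FPKM values of every gene and library came in 1 table that the authors deposited. The deposited counts are whole numbers, and how they were made is not stated, so they may be rounded estimates. The deposited FPKM were scaled by the authors for length and depth, with 0.0001 where the count is 0. Per the submitters' processing notes, cutadapt 1.9, HISAT2 2.0.4, StringTie 1.3.4d and edgeR were used, in an order and for roles not given; the sources used here name no genome build. Positions of 69 of the 78 members were equal to GENCODE M21 (GRCm38), so positions are given as GRCm38.

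The comparison used R 4.3.3 and edgeR 4.0.16 (its default low-count filter, TMM scaling and two-sided quasi-likelihood F test with group as the only term; threshold 0.05 on the p adjusted over all tested genes). CPM are counts over TMM-scaled library totals. SE is the size of the log2 fold change divided by √F. Limma 3.58.1 was fitted with a trend to log2(FPKM + 0.1) of genes with a mean FPKM of at least 0.5, and DESeq2 1.42.0 to the counts. The tests were checked on simulated counts with known changes. The changes put in were larger than those of the members, so the check does not cover changes as small as theirs.

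Members and lists were chosen with earlier results of these data known. Named members were those past the threshold, the 6 highest and 6 lowest fold changes, the 5 highest and 5 lowest mean FPKM, 10 genes picked for their roles, and up to 3 genes of each other list with the smallest p. Further members, named for their neighbours or their spread, and the genes Ndufs6, Sars2, Twnk and Dap3 and the cell type markers were named after their values were seen. Alternatives were other scalings, filters, tools, a replicate block and leaving out each library. The lowest member count was 166 (Mrpl53 in control replicate 1), and the part of counting error in the spread of each member was not estimated. Libraries of 1 group differed from each other by far more than counting noise, so none was a duplicate.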

Additional observations from a re-analysis of the deposited data

How the results depend on the processing

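The number of members called was 4 and became 5 with DESeq2, 2 with no filter on low counts, 2 with limma on FPKM, 2 with a pseudocount of 1, 1 with no filter on FPKM, 3 on FPKM rescaled by median of ratios, 0 with the replicate block and 0 to 2 without 1 library; every call in these 14 settings was a fall. The members' median log2 fold change of −0.11 kept its sign in all of them, at −0.0114 with limma on FPKM, −0.0102 with a pseudocount of 1 and −0.0114 with no filter on FPKM, and otherwise −0.13 to −0.09; the log2 ratio of summed levels ran from −0.16 to −0.07 under the other scalings and without 1 library, and was −0.0255 as a share of all counts, an alternative chosen after seeing the data, as was leaving out Mrps36 (3 called, median −0.1025). Of all genes, 1693 were called, 2618 by DESeq2, 923 with the replicate block, 1065 by limma with no filter, and 629 (without Nf2-knockout replicate 1) to 1186 without 1 library. In the lists of mitochondrial translation, transcription and their regulators (without complex I and cytosolic ribosomal proteins) 5 genes were called, 8 by DESeq2, 3 with no filter on low counts, 3 with the replicate block, 2 by limma with no filter and 2 to 7 without 1 library.

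Same-numbered libraries of the 2 groups did not deviate together (correlations −0.09, 0.03 and 0.023 for numbers 1 to 3), and not every library correlated best with its own number. Deviations from a mean of 3 libraries depend on each other, so whether the numbers pair the samples cannot be told from these values. Members near 0 changed sign. On the FPKM (as deposited, with a pseudocount of 1 and with no filter) Mrpl45 was at 0.0737, 0.0696 and 0.0737, Mrpl54 at 0.0555, 0.0548 and 0.0555, Mrps18a at 0.0459, 0.0419 and 0.0459, Mrps18c at 0.0801, 0.0770 and 0.0801, and Mrps6 at 0.0173, 0.0167 and 0.0173. Without 1 library the ranges were −0.0935 to 0.0673 for Mrpl45, −0.0678 to 0.0266 for Mrpl54, −0.0127 to 0.2575 for Mrpl57, −0.161 to 0.0861 for Mrps18a, −0.0066 to 0.1938 for Mrps18b, −0.1066 to 0.044 for Mrps18c and −0.2717 to 0.0466 for Mrps6. Of 364 values of named members under these settings, 25 changed sign, 34 lost and 2 gained a call, and 303 did neither. The cause of these shifts was not tested. With 3 libraries a group, an exact permutation test of 1 gene cannot go below p = 0.1.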
